A study of Mus musculus with 13 samples.

Results

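The clustered, replication-dependent histone genes were described here as all genes of the table whose symbol begins with Hist1h, Hist2h, Hist3h or Hist4h. These were 68 of 23366 genes: 54 of the large Hist1 cluster, 10 of Hist2, 3 of Hist3 and 1 of Hist4, or by protein 6 linker histone H1, 18 H2A, 19 H2B, 12 H3 and 13 H4 genes. Of the 68, 64 had at least 1 count and 62 passed the filter on low counts and were tested among 16537 genes. RNA came from mouse primary myoblasts, the dividing precursors of skeletal muscle fibres, isolated from hind limbs of pups of mixed strain at postnatal day 2 or 3, and from myotubes, the same kind of cell after 24 hours in 1% horse serum. The cells were wild type (4 myoblast and 5 myotube libraries) or dICR/dICR (2 and 2), with a homozygous deletion of the imprinting control region of the Igf2 and H19 locus. Whether replicates came from separate cultures or pups is not stated in the labels, so p-values measure only the spread between these samples, which may be technical.

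Replication-dependent histone genes supply the histones that package newly copied DNA. Their mRNAs accumulate in S phase and are lost when DNA synthesis stops. They lack introns, and their mRNAs usually end not in a poly(A) tail but in a short stem-loop, cut by a dedicated processing machinery and bound by the stem-loop binding protein SLBP. Some members can also make polyadenylated mRNA, which outlasts S phase, and differentiated cells draw more on replication-independent histones made from separate genes. The RNA used here was depleted of ribosomal RNA and not selected for poly(A), so that stem-loop mRNAs were retained.

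The sequences below show the stem-loop that defines the family, in capitals, with 5 bases on each side, and were read from GENCODE transcripts of GRCm38 in the 3′ untranslated region. The letters were searched after the stop codon of each member's annotated transcripts and were found in 46 of 68 members. Of all 141767 transcripts, those of the members included, 111 held them at any position (0.0783%). This share is per transcript, and that of the members is per gene and after the stop codon only. No match says only that these letters are not in the annotated transcript.
Hist1h1c, 24 bases after the stop codon: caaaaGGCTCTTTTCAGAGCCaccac
Hist1h3c, 24 bases after the stop codon: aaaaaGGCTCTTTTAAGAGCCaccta
Hist1h4c, 33 bases after the stop codon: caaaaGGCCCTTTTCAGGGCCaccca
Hist2h2ac, 21 bases after the stop codon: aaaaaGGCTCTTTTTAGAGCCaccaa
The form of Hist1h1c was held by 26 members, that of Hist1h4c by 7 and that of Hist1h3c by 6. In 17 members an annotated transcript also had AATAAA or ATTAAA, the signal of ordinary polyadenylation, in its last 50 bases. These included Hist1h1c, Hist2h2be, Hist2h3c1, Hist1h4i and Hist3h2a.

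Promoters were available from RefSeq (GRCm38.p6) for 61 members, and the 250 bases before each start were searched on both strands. The CCAAT box (CCAAT) stood in 82.0% of them against 33.8% of all 32851 promoters, and in 100% of the H1, H2A and H2B promoters against 25.0% of those of H4. The TATA box (TATAAA) stood in 47.5% against 12.4%. The octamer (ATTTGCAT), the binding motif of the OCT1 factor, was found in 7 of 18 H2A and 6 of 15 H2B promoters and in none of the H1, H3 and H4 promoters, against 1.60% of all. The letters AAACACA, known from H1 promoters, were found in 5 of 6 H1 promoters against 6.25% of all, and the E2F-type motif TTTCGCGC in 11.5% against 0.256%. No motif contains another, and a match is a description and not a site. Neighbouring H2A and H2B genes in opposite directions share bases between them, so that 1 match can count for both promoters. The octamer of Hist1h2ae and of Hist1h2bg is such a shared match. The 150 bases before the start of Hist1h1b, of Hist1h1c and of Hist2h2ac, whose levels are followed below, are shown with these motifs in capitals, on either strand.
Hist1h1b, chr13:21780626-21780775, minus strand: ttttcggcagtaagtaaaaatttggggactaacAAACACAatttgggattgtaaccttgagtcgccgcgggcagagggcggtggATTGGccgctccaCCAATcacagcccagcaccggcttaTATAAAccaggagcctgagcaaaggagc
Hist1h1c, chr13:23738657-23738806, plus strand: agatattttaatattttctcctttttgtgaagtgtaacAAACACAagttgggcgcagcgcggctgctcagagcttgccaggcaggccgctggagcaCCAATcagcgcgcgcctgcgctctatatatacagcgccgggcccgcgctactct
Hist2h2ac, chr3:96220881-96221030, minus strand: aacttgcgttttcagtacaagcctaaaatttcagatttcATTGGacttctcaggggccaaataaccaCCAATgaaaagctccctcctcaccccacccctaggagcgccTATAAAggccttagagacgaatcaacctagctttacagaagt

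Total counts per library ran from 5312559 to 56441879, and the libraries fell in a deep set (7, over 20000000 counts) and a shallow set (6). This division was made from the totals, not from the labels. Wild-type myoblasts 1 and 2 and wild-type myotubes 1, 2 and 3 were deep, as were both dICR/dICR myotubes, while wild-type myoblasts 3 and 4, wild-type myotubes 4 and 5 and both dICR/dICR myoblasts were shallow. The share of counts on small nucleolar RNA genes was 0.028 to 0.177% in deep and 2.81 to 7.18% in shallow libraries. The labels describe an Illumina and a SOLiD platform, without assigning libraries to them. H19, which the deleted region controls, stood between 52.4 and 71.5 CPM in the 4 dICR/dICR libraries and between 2340 and 40500 CPM in the 9 wild-type libraries, where CPM is the count scaled to library size with TMM factors. The muscle determination factor Myod1 stood between 185 and 1350 CPM in the 13 libraries. Summed levels of the defining markers of endothelium, of leukocytes and of erythroid cells reached at most 6.13, 6.28 and 4.4 CPM, and those of 5 fibroblast markers ran from 94.9 to 918 CPM. The highest sum, in wild-type myotube 2, came mostly from Col3a1 (888 CPM), and by mean log2 CPM of the list wild-type myotubes 3 and 4 (2.47 and 2.10) stood above it (1.95).

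Clustered histone mRNA was abundant in myoblasts and low in most wild-type myotubes. Summed over the 68 genes it reached 5468 and 5043 CPM in the deep wild-type myoblasts (1 and 2). The shallow ones (3 and 4) held 2362 and 2323 CPM. In wild-type myotubes 1 to 5 the sum was 924.5, 2767, 471.2, 436.9 and 308.8 CPM. Wild-type myotube 2 stood above wild-type myoblasts 3 and 4, and the other 4 stood below every myoblast library. The dICR/dICR myoblasts held 3578 and 5590 CPM, and the dICR/dICR myotubes held 6076 and 2360 CPM, so that dICR/dICR myotube 1 had the highest sum of all 13 libraries. As a share of all counts the genes took 0.0285% (wild-type myotube 5) to 0.677% (dICR/dICR myoblast 2). In RNA from whole cultures, fewer cells in S phase and less histone mRNA in each such cell cannot be told apart.

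The S-phase genes, a list of 24 that holds replication factors such as the Mcm helicase subunits, Pcna and nucleotide synthesis enzymes, were high and low in much the same libraries. Their mean log2 CPM was 6.68 in both deep wild-type myoblasts and 5.43 and 5.30 in the shallow ones. It was 3.46, 5.31, 2.55, 2.87 and 2.33 in wild-type myotubes 1 to 5. The dICR/dICR myoblasts had 6.43 and 6.68 and the dICR/dICR myotubes 6.52 and 5.41. Wild-type myotube 2 and the 2 dICR/dICR myotubes were thus the 3 myotube libraries with both high histone and high S-phase levels. Myog, the factor that marks entry into differentiation, stood at 2500 CPM in wild-type myotube 2 and at 3430 to 6410 CPM in the other wild-type myotubes, at 1250 and 1670 CPM in dICR/dICR myotubes, and at 142 to 1200 CPM in the myoblasts. The part of S-phase content in the histone results was not tested.

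**Figure D1:**
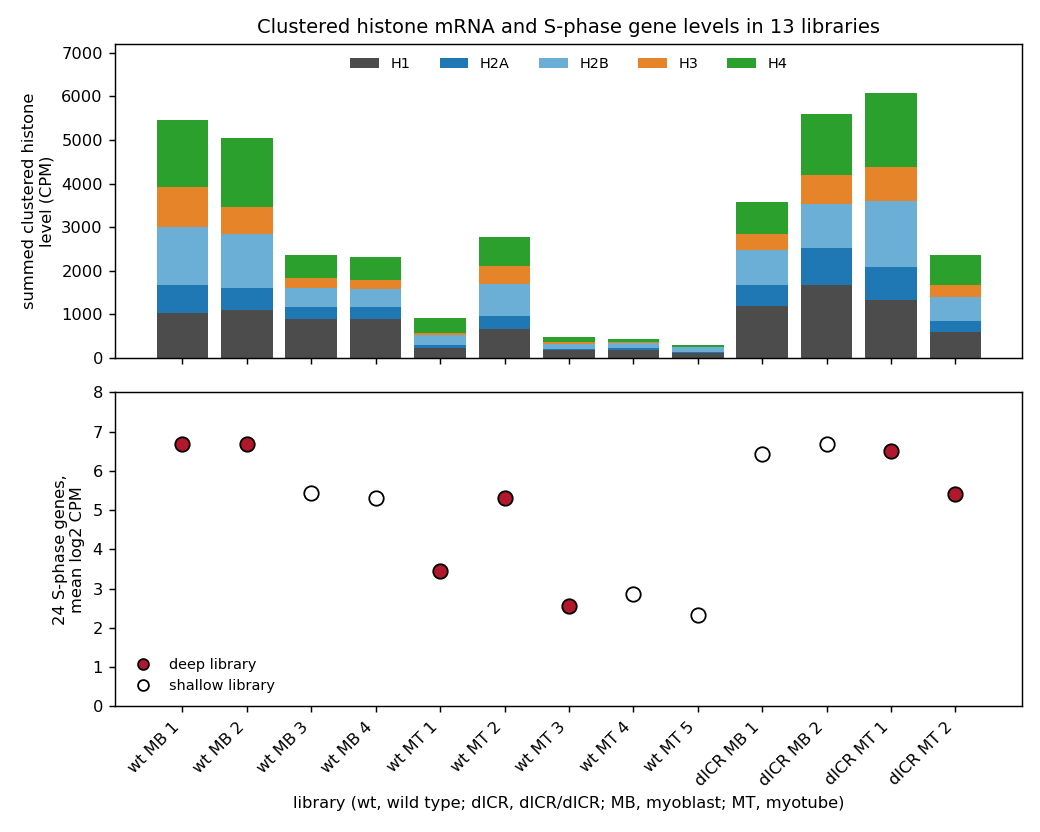
Upper panel, summed CPM of the 68 clustered histone genes in each library, stacked by histone class, from a baseline of 0; lower panel, mean log2 CPM of 24 S-phase genes, with filled points for deep and open points for shallow libraries. Wild-type myotubes 1, 3, 4 and 5 are low in both panels, at 308.8 to 924.5 CPM and 2.33 to 3.46, and wild-type myotube 2 stands apart from them at 2767 CPM and 5.31.

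Levels of different genes were compared per kilobase of coding sequence. In deep wild-type myoblasts the highest were Hist1h4d with 1019, Hist1h4h with 934.1 and Hist2h2bb with 874.8 CPM per coding kilobase, each a core histone gene. The same genes led in shallow wild-type myoblasts, where Hist2h2bb had 596.5, Hist1h4h 396.3 and Hist1h4d 378.9. By class the sums were 5022 for H4, 3369 for H2B, 1875 for H3, 1616 for H1 and 1460 for H2A in the deep set. They were 1727 for H4, 1361 for H1, 1126 for H2B, 699.1 for H2A and 509.9 for H3 in the shallow set. Both sets thus placed H4 first, and the order of the other classes differed between them. H1 took 18.7 and 21.8% of histone counts in deep wild-type myoblasts and 37.6 and 38.4% in shallow ones, without division by length.

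The testis-type members were at or near 0. Hist1h2aa and Hist1h2ba, the H2A and H2B variants of male germ cells, reached at most 0.9192 and 0.9122 CPM in any library. Hist1h1t, the testis linker histone, reached at most 1.955 CPM, in dICR/dICR myoblast 2. In the 2 dICR/dICR myoblast libraries Hist1h2aa stood at 0.7817 and 0.391 CPM, and it had no count in either dICR/dICR myotube library. The myoblast mean was 9.31-fold above a floor of 3 counts per myotube library, and for Hist1h2ba, at 0.3127 and 0.9122 CPM against no count, 9.72-fold above it. The floor covers only the myotube side, and the myoblast values rest on 10 and 3 counts of Hist1h2aa and 4 and 7 of Hist1h2ba. Neither passed the test (edgeR adjusted p = 0.224 and 0.186), and these groups lie in different depth sets. Wild-type myoblasts alone differed likewise between the sets in Hist1h2aa, with no count in the deep and 0.6167 and 0.9192 CPM in the shallow libraries.

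Many members cannot be told apart by reads. Their coding sequences were cut into all stretches of 35 bases, and 13 of 68 members had none that was absent from every other annotated gene. These 13 include the 4 members with no count, Hist1h2ap, Hist1h2bq, Hist1h2br and Hist2h2aa1, and 7 of the 13 had fewer than 100 counts over all libraries, against 4 of the other 55. Coding sequences were identical between Hist1h2ao and Hist1h2ap, Hist1h2bq and Hist1h2br, Hist1h4m and Hist1h4n, Hist2h2aa1 and Hist2h2aa2, and Hist2h3c1 and Hist2h3c2. Single values of such genes are uncertain, since how reads with several matches were counted is not stated.

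The depth sets also differed from gene to gene. Among the 54 members with a mean of at least 1 CPM in the wild-type myoblasts of each set, 47 were lower in the shallow than in the deep wild-type myoblasts, with a median log2 difference of -1.58. The range ran from -4.89 (Hist1h3e, an H3 gene at 176.6 and 95.08 CPM in deep and 3.454 and 5.362 CPM in shallow wild-type myoblasts) to 0.70 (Hist1h1a, an H1 gene at 120.3 and 119.8 against 194.6 and 196.4 CPM). The 10 members in which at least 50% of the 35-base stretches were unique had a median of -0.37, and the 44 others a median of -1.73. The relation was not steady over the 54 genes, with Pearson's r of 0.32 and Spearman's rho of 0.11, and without the 5 H1 genes 0.14 and -0.07. These points share 4 libraries and near-identical sequences, and the correlations are descriptive. The share of all genes lower in the shallow libraries was not counted. The deep and shallow wild-type myoblasts also differed in Myog (146 and 142 against 1180 and 1200 CPM) and in the Y-linked gene Ddx3y (33.4 and 27.6 against 0.247 and 0.153 CPM). Their S-phase mean log2 CPM was 6.68 in both against 5.43 and 5.30. In wild-type myotubes Ddx3y likewise stood at 176, 39.1 and 99.9 CPM in the deep set and at 0.462 and 0.407 CPM in the shallow set. The set and the origin or state of the cultures cannot be told apart here. Because of these differences, each comparison is given over all libraries and within a set where the set holds both groups.

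**Figure D2:**
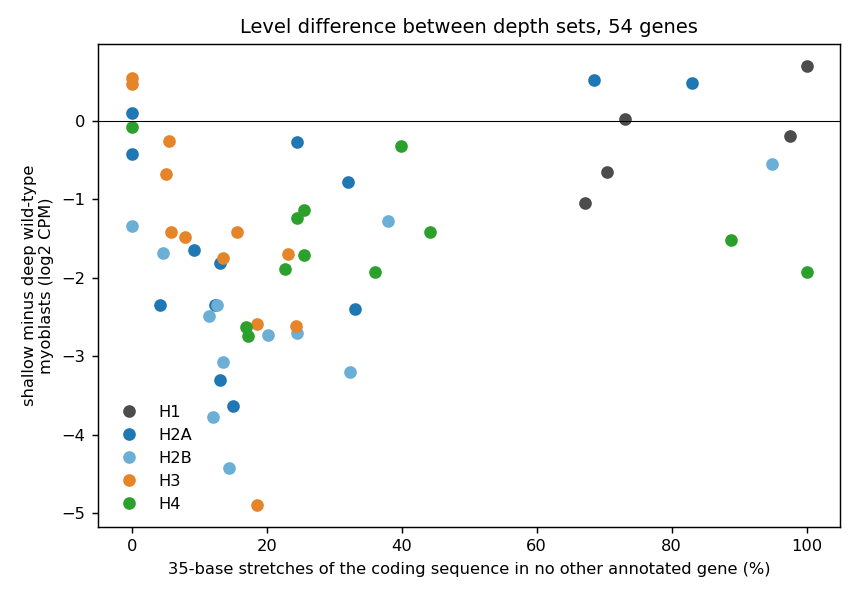
Each point is 1 of 54 clustered histone genes, coloured by class; the horizontal axis is the percentage of 35-base stretches of its coding sequence that occur in no other annotated gene, and the vertical axis is the log2 CPM of shallow minus deep wild-type myoblasts (2 libraries each). Most points lie below 0 (47 of 54), from -4.89 for Hist1h3e to 0.70 for Hist1h1a.

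In wild type, the differentiation comparison asks which histone mRNAs differ between dividing myoblasts and myotubes. Over all libraries 12 of 62 members were lower in myotubes and none higher at an adjusted p under 0.05 (edgeR quasi-likelihood with Benjamini-Hochberg over 16537 genes), or 19.4% of members, where 10.2% of all genes were lower. The log2 fold change was negative in 59 of 62 members, with a median of -2.12, against 0.02 over all genes. Called members were 5 of 6 H1 genes, 4 of 14 H2A, 1 of 17 H2B, 0 of 12 H3 and 2 of 13 H4 genes; differences between the classes were not tested. Of the H3 genes, none passed in this edgeR fit, with 7 of 12 at an unadjusted p under 0.05, and 9 of 12 passed in the shallow set alone. Counts at an unadjusted p, here and below, are given without the share of all genes at that threshold and are not calls.

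The 5 somatic linker histones were the class with most calls. Hist1h1b stood at 185.8, 200.2, 177.7 and 159.9 CPM in the wild-type myoblasts and at 17.91, 88.5, 2.404, 5.849 and 4.481 CPM in wild-type myotubes 1 to 5. No myotube value reached the myoblasts, and wild-type myotube 2 was several times higher than the other myotubes. Its log2 fold change was -2.91 ± 0.88 (SE; edgeR adjusted p = 0.0377). Hist1h1a stood at 120.3, 119.8, 194.6 and 196.4 CPM in myoblasts and at 14.78, 92.12, 3.222, 12.31 and 5.907 CPM in myotubes, and fell by 2.61 ± 0.82 on the log2 scale (edgeR adjusted p = 0.0429). Hist1h1d stood at 255.1, 287.2, 129 and 134.5 CPM in myoblasts and at 43.78, 122.3, 21.59, 17.7 and 12.22 CPM in myotubes (log2 fold change -2.20 ± 0.62, edgeR adjusted p = 0.0281). Hist1h1c and Hist1h1e had smaller fold changes. Hist1h1c, an H1 gene that can make polyadenylated mRNA, stood at 233.6, 232.4, 226.7 and 247.7 CPM in myoblasts and at 102.9, 173.8, 71.75, 89.27 and 52.15 CPM in myotubes. The groups did not overlap, and the log2 fold change was -1.26 ± 0.33 (edgeR adjusted p = 0.0213). For Hist1h1e it was -1.36 ± 0.44 (edgeR adjusted p = 0.0466), with 152.6 to 259.6 CPM in myoblasts and 35.65 to 177.1 CPM in myotubes, where wild-type myotube 2 overlapped the myoblasts.

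The ratio of Hist1h1c to Hist1h1a counts, which does not depend on the scaling between libraries, was 1.94, 1.94, 1.16 and 1.26 in wild-type myoblasts. It was 6.96, 1.89, 22.3, 7.25 and 8.83 in wild-type myotubes 1 to 5, so that 4 of 5 myotubes stood above all myoblasts and wild-type myotube 2 did not. In dICR/dICR it was 0.287 and 0.669 in myoblasts and 0.861 and 1.92 in myotubes. This pair of genes was chosen after its values were seen, and no test was made of the ratio.

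Among the core histones, Hist3h2a had the smallest adjusted p. This H2A gene lies outside the large cluster and stood at 54.88, 47.9, 70.06 and 73.54 CPM in myoblasts and 32.61, 26.57, 17.41, 25.4 and 19.35 CPM in myotubes, with wild-type myotube 2 among the others (log2 fold change -1.34 ± 0.24, edgeR adjusted p = 0.00391). The H2A gene Hist1h2ab stood at 80.19, 62.05, 62.41 and 54.54 CPM in myoblasts. Its myotube levels were 3.2, 37.85, 1.924, 4.463 and 3.056 CPM, a log2 fold change of -2.65 ± 0.80 (edgeR adjusted p = 0.0383). Hist1h2ad, an H2A gene with no unique 35-base stretch, stood at 9.374 to 13.78 CPM in myoblasts and at 6.505 CPM in wild-type myotube 2 against 0.2037 to 0.5049 CPM in the other 4 (log2 fold change -2.72 ± 0.83, edgeR adjusted p = 0.0395). Hist2h2ab, an H2A gene of the Hist2 cluster, had a log2 fold change of -1.70 ± 0.43 (edgeR adjusted p = 0.0172).

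The H4 genes called were Hist1h4c and Hist1h4h. Hist1h4c stood at 110.9, 100.5, 83.88 and 85.79 CPM in myoblasts and 38.21, 52.07, 18.56, 25.4 and 12.83 CPM in myotubes (log2 fold change -1.69 ± 0.39, edgeR adjusted p = 0.0122). Hist1h4h stood at 274.2, 308.7, 128.9 and 118.4 CPM in myoblasts and 84.16, 96.68, 24.72, 16.78 and 7.537 CPM in myotubes (-2.17 ± 0.65, edgeR adjusted p = 0.0366). In neither gene did the groups overlap. Hist1h4d, the H4 gene with the highest mean over the 13 libraries, stood at 360.9, 275.3, 120.1 and 116.3 CPM in myoblasts and at 80.77, 173.7, 30.1, 21.39 and 12.83 CPM in myotubes. It did not pass over all libraries (-1.77 ± 0.70, edgeR adjusted p = 0.0981) and passed in the shallow set alone (-2.75 ± 0.40, edgeR adjusted p = 0.00314).

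The H2B gene and the 2 H3 genes of highest mean over the 13 libraries did not pass over all libraries, an order that mixes the depth sets. Hist2h2bb, an H2B gene, stood at 354, 312.6, 232.9 and 221.7 CPM in myoblasts and at 78.41, 214.9, 17.22, 20.16 and 11.81 CPM in myotubes (log2 fold change -2.03 ± 0.74, edgeR adjusted p = 0.0762). Hist1h3c stood at 108.6, 105, 46.25 and 34.16 CPM in myoblasts and at 3.734, 57.07, 0.8896, 1.693 and 2.241 CPM in myotubes (-2.46 ± 1.05, edgeR adjusted p = 0.123). For Hist1h3f the value was -1.95 ± 0.89 (edgeR adjusted p = 0.146). Hist1h3e, the H3 gene of highest level in deep wild-type myoblasts, had -2.12 ± 1.29 (edgeR adjusted p = 0.282). In Hist1h3c and Hist1h3f wild-type myotube 2 lay above the shallow myoblasts. The H2B gene with a call, Hist3h2ba, also had the lowest log2 fold change (-3.60 ± 0.99, edgeR adjusted p = 0.0252). That call rests on 2 libraries: wild-type myoblasts 3 and 4 had 4.194 and 3.37 CPM of Hist3h2ba, the other 11 libraries 0.469 CPM or less, and within the deep set its value was -0.68 ± 0.80 (edgeR adjusted p = 0.567).

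The number of members that passed depended on single libraries and on the fit. Without wild-type myotube 2, 50 members were lower and 1 higher over all libraries, where 13% of all genes were lower and 10.1% higher. Leaving out any 1 of the other wild-type libraries or of the dICR/dICR myoblasts brought the count down to between 3 (without wild-type myotube 3, where 7.67% of all genes were lower) and 7. With all libraries kept, 48 were lower and 1 higher when a depth-set term was added (16.6% of all genes lower), 26 lower and 2 higher by DESeq2 (13.1%), and 5 lower when only the wild-type groups were fitted (9.54%). Within the deep set, 3 of 57 members were lower and 1 higher (11.6% of all genes) with wild-type myotube 2 and 50 of 57 without it, against 10.6 and 16.5% of all genes that were lower. Within the shallow set, 48 of 56 members were lower and none higher, against 11.4 and 11.2% of all genes, and the median log2 fold change was -3.78. When 1 mean per group and set was fitted to all 13 libraries, so that every library informs the spread, 15 of 62 were lower and 2 higher in the deep set (14.7 and 14.3% of all genes) and 14 lower and none higher in the shallow set (3.25 and 3.72%). The myotubes lay below all myoblasts without overlap in 13 of 62 members over all libraries, in 52 in the deep set and in 54 in the shallow set, against 9.91, 29.9 and 31.2% of all genes.

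**Figure D3:**
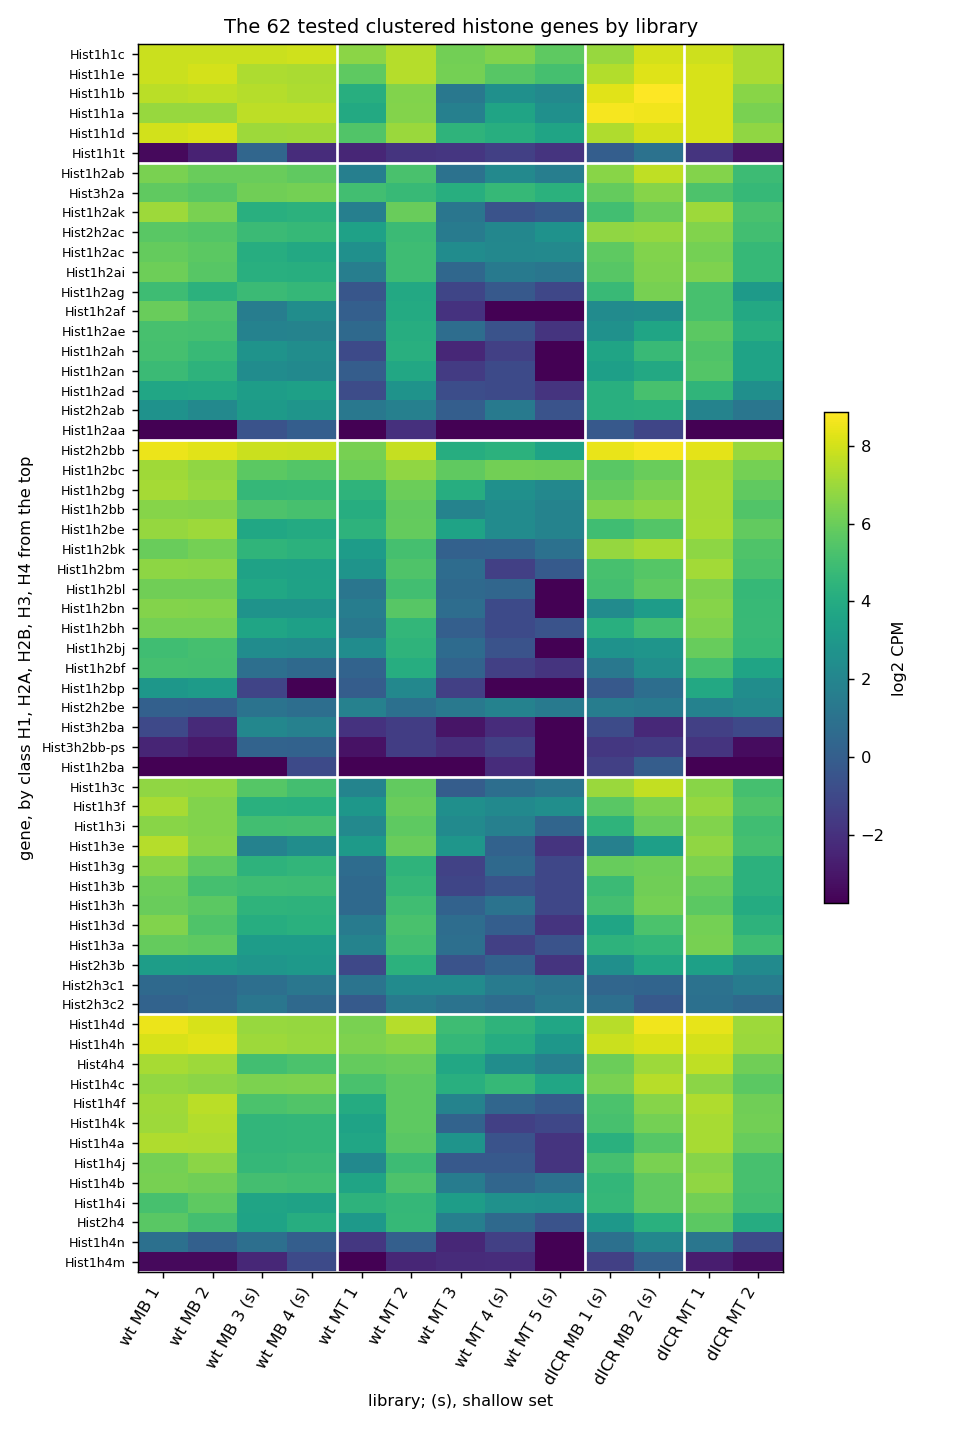
Log2 CPM (colour) of the 62 tested clustered histone genes (rows, grouped by class and ordered by mean level) in the 13 libraries (columns, with white lines between the 4 groups and (s) for the shallow set). The columns of wild-type myotubes 1, 3, 4 and 5 are dark over most rows, while Hist2h2be, Hist2h3c1 and Hist2h3c2, which are low throughout, do not darken there.

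Members differed in how much was left in myotubes. For the 54 members with at least 1 CPM in the wild-type myoblasts of each set, a filter that reads the myoblast level, each library was set against the wild-type myoblast mean of its own set. The median member stood at 8.72, 3.99, 9.79 and 5.43% of that mean in wild-type myotubes 1, 3, 4 and 5, and at 53.9% in wild-type myotube 2. It stood at 118 and 42.2% in dICR/dICR myotubes 1 and 2 and at 156 and 279% in dICR/dICR myoblasts 1 and 2. Over wild-type myotubes 1, 3, 4 and 5, the order of medians was led by Hist2h3c1 (146%), Hist2h3c2 (111%), Hist1h2bc (100%), Hist1h4i (47.7%), Hist3h2a (34.6%) and Hist1h1c (34.2%). It ended with Hist1h4k (1.5%), Hist1h2ah (0.941%) and Hist1h2af (0.188%). Hist2h3c1, Hist2h3c2 and Hist1h2bc have no unique 35-base stretch, so their single values are uncertain. Hist2h2be, at 1.007 and 0.9327 CPM in the deep wild-type myoblasts, did not pass the filter and is not in this order. Neighbours in this order overlap: the 4 values ran from 101 to 369% for Hist2h3c1 and from 64.1 to 160% for Hist2h3c2, and from 22 to 44.2% for Hist1h1c and 26.9 to 63.5% for Hist3h2a. The 11 members with an annotated polyadenylation signal had medians of 28.9, 9.5, 17.3 and 9.09% in these libraries, and the 43 others had 6.42, 3.01, 9.29 and 5.2%. In wild-type myotube 2 the order was the opposite, with 48.3 and 54.6%. That difference was not tested. The split follows the annotation only: Hist1h2bc, known to make polyadenylated mRNA, has no such annotated signal and was among the 43.

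**Figure D4:**
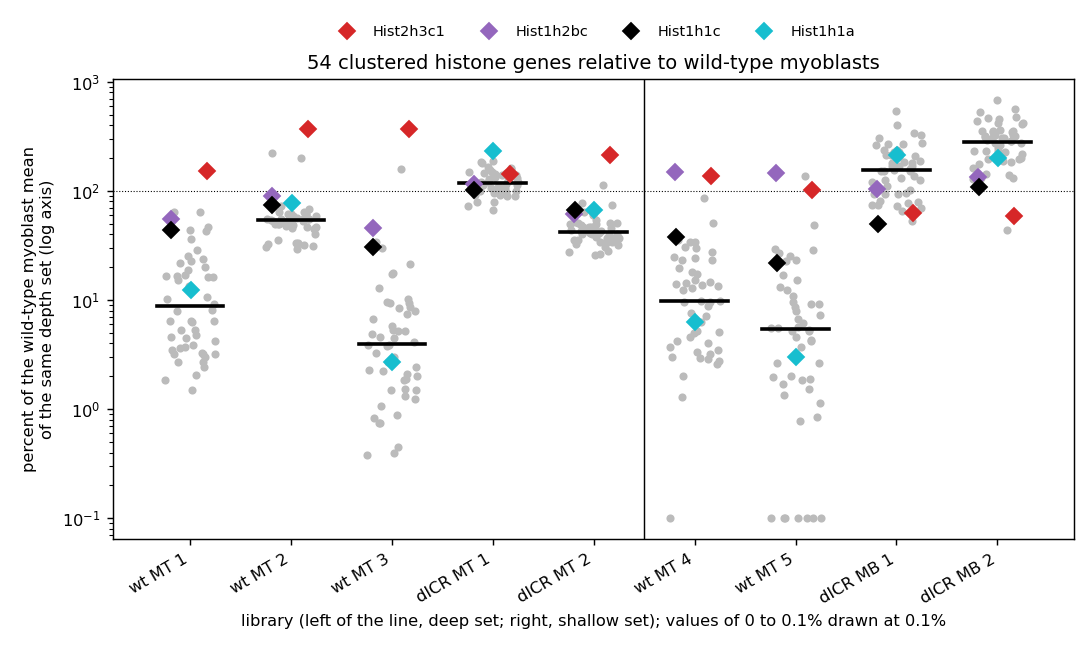
Each grey point is 1 of 54 clustered histone genes, as a percentage (log axis) of the wild-type myoblast mean of the same depth set, with the median as a bar and 4 genes as coloured diamonds; libraries left of the vertical line are deep, those right of it shallow, and values at or near 0 are drawn at the lowest level shown. The medians lie at 3.99 to 9.79% in 4 wild-type myotubes, at 53.9% in wild-type myotube 2, and at 42.2% or above in the 4 dICR/dICR libraries.

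Hist2h2be, an H2B gene known to make polyadenylated mRNA, differed in sign from its neighbour. It stood at 1.007, 0.9327, 1.974 and 1.685 CPM in the wild-type myoblasts and at 3.391, 1.764, 2.501, 3.54 and 2.648 CPM in wild-type myotubes. Myotubes were above the myoblasts within each set. The log2 fold change was 1.02 ± 0.34 over all libraries (edgeR adjusted p = 0.0554) and 1.42 ± 0.42 in the deep set (edgeR adjusted p = 0.0464). In the shallow set it was 0.78 ± 0.43 and did not pass (edgeR adjusted p = 0.231). Hist2h2ac, an H2A gene, lies next to Hist2h2be in the opposite direction, and its promoter is printed above. It stood at 49.81, 44.15, 28.74 and 25.74 CPM in the wild-type myoblasts and at 10.78, 28.74, 2.717, 4.156 and 6.315 CPM in wild-type myotubes, a log2 fold change of -1.80 ± 0.59 (edgeR adjusted p = 0.0511). In the deep and shallow sets it was -1.70 and -2.38.

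In RefSeq, 13 such pairs of an H2A and an H2B gene lie in opposite directions and under 500 bases apart. In the 8 pairs with values for both genes in each set, all members other than Hist2h2be and Hist1h2bc had negative log2 fold changes in both sets. Hist1h2bc, which lies next to Hist1h2ac, stood at 132.2, 108.9, 50.82 and 43.97 CPM in the wild-type myoblasts and at 66.14, 108.7, 55.47, 70.8 and 68.85 CPM in wild-type myotubes. Its log2 fold change was -0.62 ± 0.37 in the deep set (edgeR adjusted p = 0.25) and 0.58 ± 0.20 in the shallow set (edgeR adjusted p = 0.0708). Those of Hist1h2ac were -1.95 and -1.82. Hist1h2bc has no unique 35-base stretch in its coding sequence, and its values are uncertain. Hist2h3c1, an H3 gene likewise without a unique 35-base stretch, had the highest log2 fold change (1.04 ± 0.38, edgeR adjusted p = 0.0733). It stood at 1.283 to 2.298 CPM in the wild-type myoblasts and at 2.037 to 4.953 CPM in wild-type myotubes. Hist2h2ac, Hist1h2ac, Hist1h4i, Hist2h3c2, the pairs and, below, Hist1h2bk were chosen after their values were seen.

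**Figure D5:**
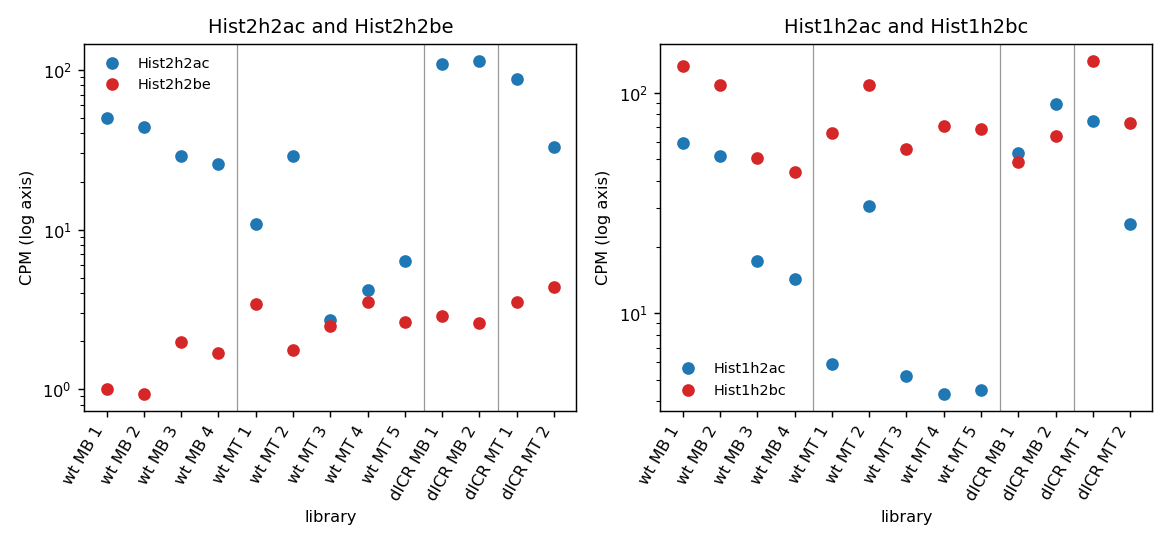
CPM (log axis) in the 13 libraries of 2 pairs of an H2A gene (blue) and an H2B gene (red) that start next to each other on opposite strands, with vertical lines between the 4 groups. Hist2h2ac and Hist1h2ac drop in 4 of 5 wild-type myotubes (to 10.78 CPM or less and 5.867 CPM or less), while in the 5 wild-type myotubes Hist2h2be lies at 1.764 to 3.54 CPM and Hist1h2bc at 55.47 to 108.7 CPM.

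The next comparison asks what the deletion did to histone mRNA in myotubes. Over all libraries none of 62 members passed in edgeR, where 0.556% of all genes did, and 2 members were higher by DESeq2, where 2.63% of all genes were. In edgeR 35 members had an unadjusted p under 0.05, and the share of all genes at that threshold is not given here. Among all genes 0.333% were higher in edgeR. The log2 fold change (dICR/dICR minus wild type) was positive in 55 of 62, with a median of 2.34 against -0.06 over all genes. It uses the same wild-type myotubes as the differentiation comparison, so the values are not independent of it. Without wild-type myotube 2, 43 members were higher and none lower over all libraries, where 4.59% of all genes were higher. Within the deep set 0 of 57 passed with it (12 at an unadjusted p under 0.05, with 0.709% of all genes passing) and 43 of 57, all higher, without it, where 6.32% of all genes were higher. Over the tested members, dICR/dICR myotube 1 lay above wild-type myotube 2 in 54 of 62 and dICR/dICR myotube 2 in 16 of 62, while both lay above wild-type myotubes 1, 3, 4 and 5 in 52 of 62. The share of all genes was not counted for these orders, so they do not show how unusual the members are. Wild-type myotube 2 was set apart after its values were seen. Groups did not overlap, with dICR/dICR higher, in 15 of 62 over all libraries and 16 in the deep set, against 10.5 and 15.3% of all genes.

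Hist1h1b was among those 15. It stood at 270.6 and 98.34 CPM in dICR/dICR myotubes against 88.5 CPM in wild-type myotube 2 and 2.404 to 17.91 CPM in the other wild-type myotubes, a log2 fold change of 2.94 ± 0.98 (edgeR adjusted p = 0.179). In the deep set this was 2.32 ± 1.13 (edgeR adjusted p = 0.339), and 4.18 ± 0.89 without wild-type myotube 2 (edgeR adjusted p = 0.0292). Hist1h1a, at 275.9 and 80.19 CPM, overlapped wild-type myotube 2. Hist1h1c, at 237.6 and 154.3 CPM against 52.15 to 173.8 CPM, had a log2 fold change of 1.00 ± 0.40 (edgeR adjusted p = 0.242). The highest value was that of Hist1h2bh, an H2B gene (3.25 ± 1.21, edgeR adjusted p = 0.215). The lowest fitted value was that of Hist1h2aa, which had no count in 6 of these 7 myotube libraries, so no fold is given.

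In myoblasts, none of 62 members passed over all libraries, where 0.0302% of all genes did, with 3 members at an unadjusted p under 0.05 and none called by DESeq2. The median log2 fold change was 0.08, with 34 positive. This comparison sets shallow dICR/dICR libraries against wild-type libraries of both sets. Within the shallow set, 25 of 56 members were higher in dICR/dICR and 1 lower, against 11.3 and 10.3% of all genes, and the median was 1.15. Both shallow wild-type myoblast libraries were nearly without counts of the Y-linked gene Ddx3y (0.247 and 0.153 CPM), which the dICR/dICR myoblasts held at 14.5 and 63.1 CPM and the deep wild-type myoblasts at 33.4 and 27.6 CPM. Myog stood at 1180 and 1200 CPM in the shallow wild-type myoblasts, against 402 and 151 CPM in the dICR/dICR myoblasts. The mean log2 CPM of the S-phase genes was 5.43 and 5.30 against 6.43 and 6.68. The groups compared in the shallow set thus differ in these measures too, and their part in the result cannot be told apart from that of the genotype there. When the spread was taken from all 13 libraries, 1 of 62 passed, Hist3h2ba, and it was lower, where 1.94% of all genes were higher and 3.31% lower, so the other calls in the shallow set rest on the spread of 6 libraries. In the shallow set the dICR/dICR values lay above both wild-type values in 38 of 62 members, or 61.3%, against 30.7% of all genes. Over all libraries this held in 10 of 62, or 16.1%, against 14.2%.

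The largest increase in the shallow set was that of Hist1h2bk, an H2B gene, at 115.7 and 145.3 CPM in dICR/dICR against 22.45 and 20.53 CPM in wild-type myoblasts 3 and 4 (log2 fold change 2.62 ± 0.22, edgeR adjusted p = 0.00137). With the shared spread it was 2.60 ± 1.03 (edgeR adjusted p = 0.161). In wild-type myoblasts 1 and 2, of the deep set, Hist1h2bk stood at 63.69 and 74.43 CPM. Hist2h2ac was at 108.7 and 114.4 CPM in dICR/dICR, above the 25.74 to 49.81 CPM of all 4 wild-type myoblasts, and was 2.05 ± 0.21 higher on the log2 scale in the shallow set (edgeR adjusted p = 0.00234). Hist1h1c was not among them, and stood at 118.7 and 259.6 CPM against 226.7 and 247.7 CPM (-0.30 ± 0.38, edgeR adjusted p = 0.602). Hist3h2ba was lower, at 0.469 and 0.1303 CPM (-3.44 ± 0.65, edgeR adjusted p = 0.0108). Over all libraries the lowest and highest log2 fold changes in myoblasts were those of Hist1h3e (-3.41 ± 2.00, edgeR adjusted p = 0.489) and Hist1h2ba (3.47 ± 1.80, edgeR adjusted p = 0.450), and Hist1h2ba had a count in 1 of 4 wild-type myoblast libraries.

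Differentiation in dICR/dICR sets deep myotubes against shallow myoblasts, so that the change and the depth set cannot be told apart. None of 62 members passed in edgeR, where 0.145% of all genes did, with 6 at an unadjusted p under 0.05 and 2 lower by DESeq2 (3.98% of all genes). The median log2 fold change was 0.20, with 33 positive. A depth-set term takes the set difference from the wild-type libraries, whose myoblasts also differ between the sets in Myog, Ddx3y and S-phase levels. When it was added, the median turned to -1.96, with 56 of 62 negative and again none passing, where 7.63% of all genes did. Hist1h3e had the highest value (3.43 ± 2.11, edgeR adjusted p = 0.380), at 3.205 and 10.16 CPM in dICR/dICR myoblasts and 108 and 34.71 CPM in dICR/dICR myotubes. In wild-type myoblasts alone the same gene differed by -4.89 on the log2 scale between the sets.

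The difference between the 2 differentiation changes was not shown for any member. None of 62 and 0% of all genes passed in edgeR, with 4 members at an unadjusted p under 0.05 and none called by DESeq2. The median was 1.91 over all libraries, with 55 positive, and 0.42 after adding a depth-set term. The values ran up to 5.55 ± 2.53 (Hist1h3e, edgeR adjusted p = 0.495) and the lowest fitted value was that of Hist1h2ba, for which no fold is given because neither dICR/dICR myotube library had a count.

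Other genes of histone supply were counted in the wild-type differentiation comparison. Of 24 genes of histone mRNA transcription and processing, 4 were lower in wild-type myotubes and none higher, against 10.2 and 8.86% of all genes: Ccne1 (log2 fold change -2.10 ± 0.35, edgeR adjusted p = 0.00253) and Ccne2 (-2.74 ± 0.54, edgeR adjusted p = 0.00554), the E-type cyclins that activate histone gene transcription through NPAT, Cpsf3 (-0.69 ± 0.18, edgeR adjusted p = 0.0216), the endonuclease of the cleavage complex, and Eri1 (-1.51 ± 0.41, edgeR adjusted p = 0.0238), a nuclease that trims the stem-loop. The stem-loop binding protein gene Slbp stood at 94.4, 89.2, 35 and 33.9 CPM in the wild-type myoblasts and 45.2, 59.4, 22.6, 18.6 and 23 CPM in wild-type myotubes (-0.90 ± 0.42, edgeR adjusted p = 0.156). Npat (-0.37 ± 0.20, edgeR adjusted p = 0.228) and Casp8ap2 (-0.81 ± 0.32, edgeR adjusted p = 0.101), coactivators of histone genes, did not pass.

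Of the 24 S-phase genes, which share Slbp, Ccne1 and Ccne2 with the list before, 20 were lower in wild-type myotubes and none higher, against 10.2 and 8.86% of all genes. They included the helicase subunit Mcm2 (-2.17 ± 0.46, edgeR adjusted p = 0.00757), the flap endonuclease Fen1 (-1.83 ± 0.40, edgeR adjusted p = 0.00922), the replication factor Gins1 (-2.36 ± 0.52, edgeR adjusted p = 0.00949) and the nucleotide reductase Rrm2 (-2.58 ± 0.58, edgeR adjusted p = 0.0103). Pcna, the sliding clamp, did not pass (-2.22 ± 0.89, edgeR adjusted p = 0.101). In shallow myoblasts 21 of 24 were higher in dICR/dICR (11.3% of all genes), and none with the spread of all libraries (1.94%). In myotubes 1 of 24 was higher in dICR/dICR over all libraries (0.333%). That gene was Ccne1, at 140 and 119 CPM in dICR/dICR myotubes against 40.7, 46.4, 12.3, 20.9 and 16.1 CPM in wild-type myotubes (2.24 ± 0.40, edgeR adjusted p = 0.0350), and here wild-type myotube 2 lay with the other wild-type libraries.

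Another list held 11 histone variants outside the clustered genes as replication-independent, a property that was not tested for each of them. Of the 11, 5 were lower in wild-type myotubes and none higher, against 10.2 and 8.86% of all genes. These were H2afy2 (-2.22 ± 0.34, edgeR adjusted p = 0.00175) and H2afy (-1.10 ± 0.19, edgeR adjusted p = 0.00298), which encode macroH2A, and H2afj (-1.76 ± 0.43, edgeR adjusted p = 0.0154), H2afv (-0.82 ± 0.23, edgeR adjusted p = 0.0277) and H2afx (-2.22 ± 0.65, edgeR adjusted p = 0.0341). H1f0, the linker histone of resting and differentiated cells, stood at 66.6 to 95.8 CPM in the wild-type myoblasts and at 93.5 to 131 CPM in wild-type myotubes (0.50 ± 0.19, edgeR adjusted p = 0.0826). H2afz, H3f3a and H3f3b differed strongly between the sets: H2afz stood at 456 and 537 CPM in deep and at 15.3 and 14.1 CPM in shallow wild-type myoblasts, and both H3f3a and H3f3b were also lower in the shallow ones. None of the 3 passed over all libraries (edgeR adjusted p = 0.740, 0.943 and 0.410). Within each set all 3 stood lower in every wild-type myotube than in the wild-type myoblasts, as did 29.9 and 31.2% of all genes in the deep and shallow sets. H3f3b stood at 879 and 807 against 443, 466 and 291 CPM in the deep set. In the shallow set it stood at 158 and 142 against 94 and 53.4 CPM. Of 19 histone chaperones, 8 were lower and 2 higher, against the same 10.2 and 8.86% of all genes. Those lower included the replication-coupled assembly factors Chaf1a (-2.34 ± 0.58, edgeR adjusted p = 0.0168) and Chaf1b (-2.90 ± 0.69, edgeR adjusted p = 0.0138), the acetyltransferase Hat1 (-1.49 ± 0.28, edgeR adjusted p = 0.00435), Dnajc9 (-1.58 ± 0.32, edgeR adjusted p = 0.00636) and Ssrp1 (-0.99 ± 0.24, edgeR adjusted p = 0.0151). Ubn1, of the HIRA complex that deposits H3.3 outside S phase, was higher (0.93 ± 0.17, edgeR adjusted p = 0.00376). Hira itself and Cabin1, of the same list, were not. Hira stood at 37.1 to 48.9 CPM in the wild-type myoblasts and at 21.9 to 40.5 CPM in wild-type myotubes, and Cabin1 at 64.3 to 117 and 56.8 to 88 CPM.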

How the data were processed

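RNA-seq of 13 libraries was analysed from the deposited table of raw read counts per gene. The authors aligned reads with TopHat2 to mm9 and counted with HTSeq, per the submitters' processing notes, which give no versions, strand setting or rule for reads with several matches. No columns of other series were present (0). The groups come from the labels. Counts of the 13 libraries were fitted together in edgeR 4.0.16 (R 4.3.3, limma 3.58.1) with TMM scaling, 4 group means and the quasi-likelihood test, after filterByExpr (minimum count 10, minimum total 15). Genes were called at a Benjamini-Hochberg adjusted p under 0.05 over all 16537 genes tested. Log2 CPM used a prior count of 2. DESeq2 1.42.0 was an alternative, and the procedure was tested on simulated data. Named genes were called members, the 2 members of highest level per class, the extremes of each comparison, testis-type and polyadenylated members, and called or core genes of the other lists. The members and lists were chosen with earlier results of these data known. Sequences came from GENCODE and RefSeq (GRCm38), whose build differs from that of the counts, so no gene coordinates were joined to them. Counting floors (3 counts) cover counting error only. Over all genes, no 2 libraries of a group agreed within sampling noise (18 pairs, by chi-square per degree of freedom). Over the members, wild-type myoblasts 3 and 4 came close to it, at 1.54, and wild-type myotubes 4 and 5 stood at 2.573. The other pairs of the same group and depth set stood at 32.69 to 217.5, a measure that also grows with the counts. Calls in the shallow set alone thus rest partly on replicates with little spread.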

Additional observations from a re-analysis of the deposited data

Results flagged for a closer look

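Gap tests (the gap to the nearest library as a share of the group's range) were made 26 times, in groups of 5 or 4 libraries, where chance flags about 1 in 20 groups. In 7 of them wild-type myotube 2 stood apart from the other 4 wild-type myotubes. Only the tests of wild-type myotubes could flag this library, so 26 is not the base for its rate. These 7 tests share this library and are not independent. Its summed histone level was 2767 CPM against 308.8 to 924.5 CPM. Among the linker histones, Hist1h1a stood at 92.12 CPM against 3.222 to 14.78 CPM and Hist1h1b at 88.5 CPM against 2.404 to 17.91 CPM. Hist1h1d stood at 122.3 CPM against 12.22 to 43.78 CPM and Hist1h1e at 177.1 CPM against 35.65 to 73.48 CPM. The H2A genes Hist1h2ab, at 37.85 CPM against 1.924 to 4.463 CPM, and Hist1h2ad, at 6.505 CPM against 0.2037 to 0.5049 CPM, were also highest there.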

How the results depend on the processing

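For differentiation in wild type, 12 members were called. The count was 28 with DESeq2 (26 lower, 2 higher; 13.1 and 13.4% of all genes), 33 with a replicate block (all lower; 9.8%), 49 with the depth set as a term (48 lower; 16.6%), 5 with only the groups compared (all lower; 9.54%), 4 in the deep set, 48 in the shallow set and 51 in the deep set without wild-type myotube 2. Leaving out 1 library gave 3 to 51. For the genotype effect in myotubes it was 0, with 2 by DESeq2, 43 in the deep set without wild-type myotube 2, and 0 to 43 leaving out 1 library. For the genotype effect in myoblasts it was 0, with 26 in the shallow set and 1 there with the spread of all libraries. For differentiation in dICR/dICR it was 0, with 2 by DESeq2, 9 with only the groups compared (6 higher, 3 lower, against 8.68 and 5.47% of all genes), and 3 with a crossed replicate block (2 higher, 1 lower, against 4.4 and 1.92%). The difference between the changes gave 0 in every fit run. No called member changed direction in any fit that gave it an adjusted p, which DESeq2 did for 9 of the 12 and the fit of only the groups compared for 11. All 12 remained called with RLE factors, in the shallow set and without wild-type myotube 2. RLE and DESeq2 scaling moved the median of all genes to -0.13 in the genotype comparison in myotubes, in differentiation in dICR/dICR and in the difference. The replicate numbers were not taken as pairs: deviations of same-numbered libraries correlated at 0.43, 0.52, -0.41 and 0.52 in wild-type differentiation and at -0.39 in dICR/dICR. The depth sets, the spread of wild-type myotubes and 2 dICR/dICR libraries per group limit precision. The within-set spread shared by all libraries, the deep set without wild-type myotube 2, the run without small nucleolar RNA genes and the crossed block were chosen after seeing the data. The cause of these changes was not tested.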
